A study of Ceratopteris richardii with 6 samples.

Results

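In callus of the fern Ceratopteris richardii, 101 genes were high in 3 libraries and low in the other 3, across the labelled states of the tissue. The high libraries were differentiating 3, proliferating 1 and proliferating 3 (titled MS3, BA1 and BA3), and the others were differentiating 1, differentiating 2 and proliferating 2 (titled MS1, MS2 and BA2). The 101 genes came from 30001 gene models in the deposited table, and from 21124 with a KP509 identifier and a mean of at least 1 and under 1000 FPKM (a relative abundance: fragments scaled to transcript length and to all mapped fragments of the library). A member had a mean log2(FPKM + 1) in the 3 high libraries at least 1.5 above that in the other 3, here called the pattern difference. Its lowest value in the high libraries also had to lie above its highest value elsewhere. The members were therefore chosen by the same values that are described here. They made up 0.478% of the 21124 genes, a share that the choice itself sets.

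The study set differentiating callus (3 libraries) against proliferating callus (3 libraries). Every library was polyadenylated RNA from callus of this species, and the labels call the 3 libraries of each state biological replicates without saying whether they came from separate cultures. The sources used here do not give the medium, the age of the culture, the strain or the meaning of the letters in the titles. P-values between the states measure only the spread between these libraries, which may be technical. In whole callus fewer cells of a type and less RNA per cell cannot be told apart.

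Callus is a mass of plant cells that divide without forming organs. When the culture conditions change, cells within it can organise into new meristems, from which shoots and roots arise. Ceratopteris is a homosporous fern used as a model because its life cycle is short and because its gametophyte and sporophyte live independently. A piece of callus can hold dividing and organising cells side by side.

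None of the members has a gene name. All 101 matched a locus tag in the assembly table C.richardii_v2, which holds 36816 genes and 0 symbols other than the locus tags, so no function is given to any gene here. That table was used to see which genes lie next to each other.

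Seen library by library, the members did not form 2 even levels. The median member stood at 5.99 FPKM in differentiating 1, 4.74 in differentiating 2 and 24.3 in differentiating 3, and at 26.3 in proliferating 1, 15.9 in proliferating 2 and 34.2 in proliferating 3. Proliferating 2 thus lay between the 3 high libraries and differentiating 1 and 2. Within a gene, the median distance below the mean of the 3 high libraries was 4.24-fold for differentiating 1, 4.93-fold for differentiating 2 and 1.78-fold for proliferating 2, all on the log2(FPKM + 1) scale. Together the 101 genes took 0.271%, 0.191% and 1.10% of all FPKM in differentiating 1, 2 and 3, and 1.33%, 0.718% and 1.54% in proliferating 1, 2 and 3.

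**Figure D1:**
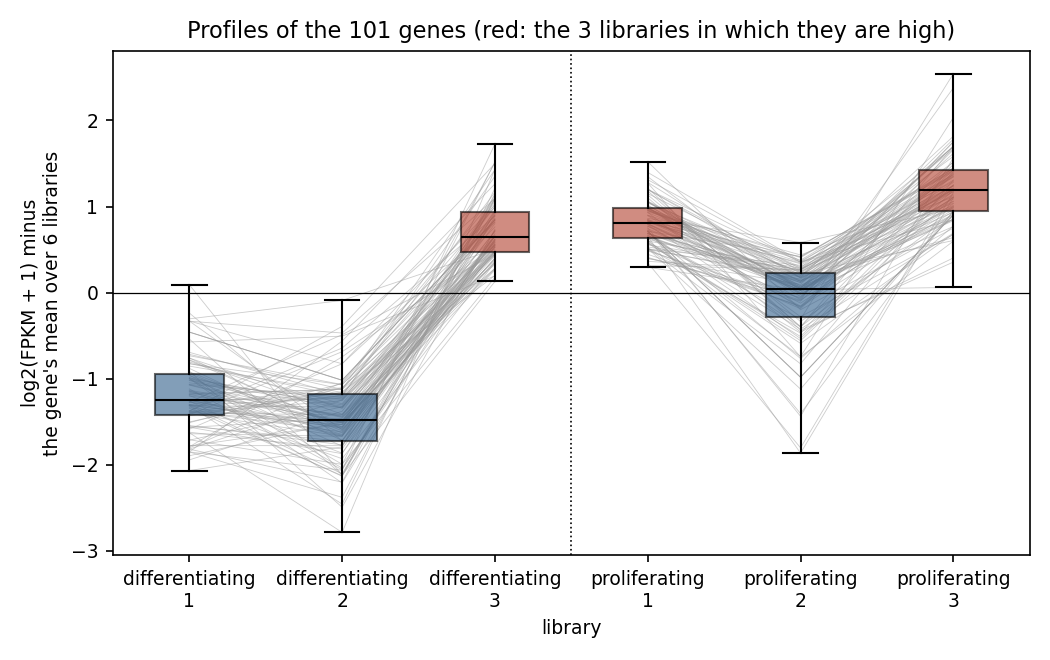
Levels of the 101 genes in each library, as log2(FPKM + 1) minus the gene's own mean over the 6 libraries; grey lines are genes, boxes run from the first to the third quartile with the median inside, and whiskers reach the lowest and highest gene. The medians were -1.24, -1.48 and 0.65 in differentiating 1, 2 and 3, and 0.80, 0.05 and 1.19 in proliferating 1, 2 and 3.

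The rule itself places the 3 high libraries above the other 3 in every member, so only the order within each set was free. That order often recurred from gene to gene. Proliferating 3 was the highest library in 71 members, proliferating 1 in 18 and differentiating 3 in 12. Differentiating 2 was the lowest in 70, differentiating 1 in 26 and proliferating 2 in 5. The commonest full order, held by 31 of the 101, was proliferating 3, proliferating 1, differentiating 3, proliferating 2, differentiating 1 and differentiating 2 from high to low. There were 20 different orders in all. Over the 5050 pairs of members, the correlation of log2(FPKM + 1) across the 6 libraries had a median r of 0.926 and went down to 0.245, which describes genes chosen for a shared pattern and measured in the same libraries.

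Other measures moved with the same 3 libraries. In differentiating 3, proliferating 1 and proliferating 3, 3642 to 3817 genes were listed at 0, against 2972 to 3066 in the other 3 libraries. Genes at 1 FPKM or more numbered 21785 to 21922 in the 3 high libraries and 22196 to 22635 in the others. Gene models under the authors' added identifiers took 2.01% to 2.14% of all FPKM in the high libraries and 1.79% to 1.90% in the others. Their part in the pattern was not tested, and the number of reads per library is unknown.

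The largest pattern difference was 2.87, in KP509_33G030200. This gene had 5.65, 4.74 and 78.3 FPKM in differentiating 1, 2 and 3, and 53.4, 17.2 and 62.4 FPKM in proliferating 1, 2 and 3. Differentiating 3 was its highest library, and the labelled states overlapped. KP509_10G071200, next in size at 2.82, had 24.95, 10.6 and 215 FPKM in differentiating callus and 157, 89.8 and 281 FPKM in proliferating callus. KP509_02G092000 had 26.0, 19.7 and 208 FPKM in differentiating 1 to 3 and 197, 103 and 308 FPKM in proliferating 1 to 3. In KP509_02G092000 and KP509_10G071200 alike, proliferating 2 had over 3 times the level of either low differentiating library and less than any of the 3 high ones.

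KP509_15G064400 came close to a level plateau in its high libraries, with 14.97, 10.1 and 122 FPKM in differentiating 1, 2 and 3 against 151, 73.1 and 148 FPKM in proliferating 1, 2 and 3. KP509_01G073000 did not, since it had 15.8, 9.90 and 51.9 FPKM in differentiating callus and 63.9, 32.5 and 241 FPKM in proliferating callus. Its value in proliferating 3 was 3.77 times the next highest. In 8 members the highest library had at least 2 times the next, and in all 8 of them it was proliferating 3.

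**Figure D2:**
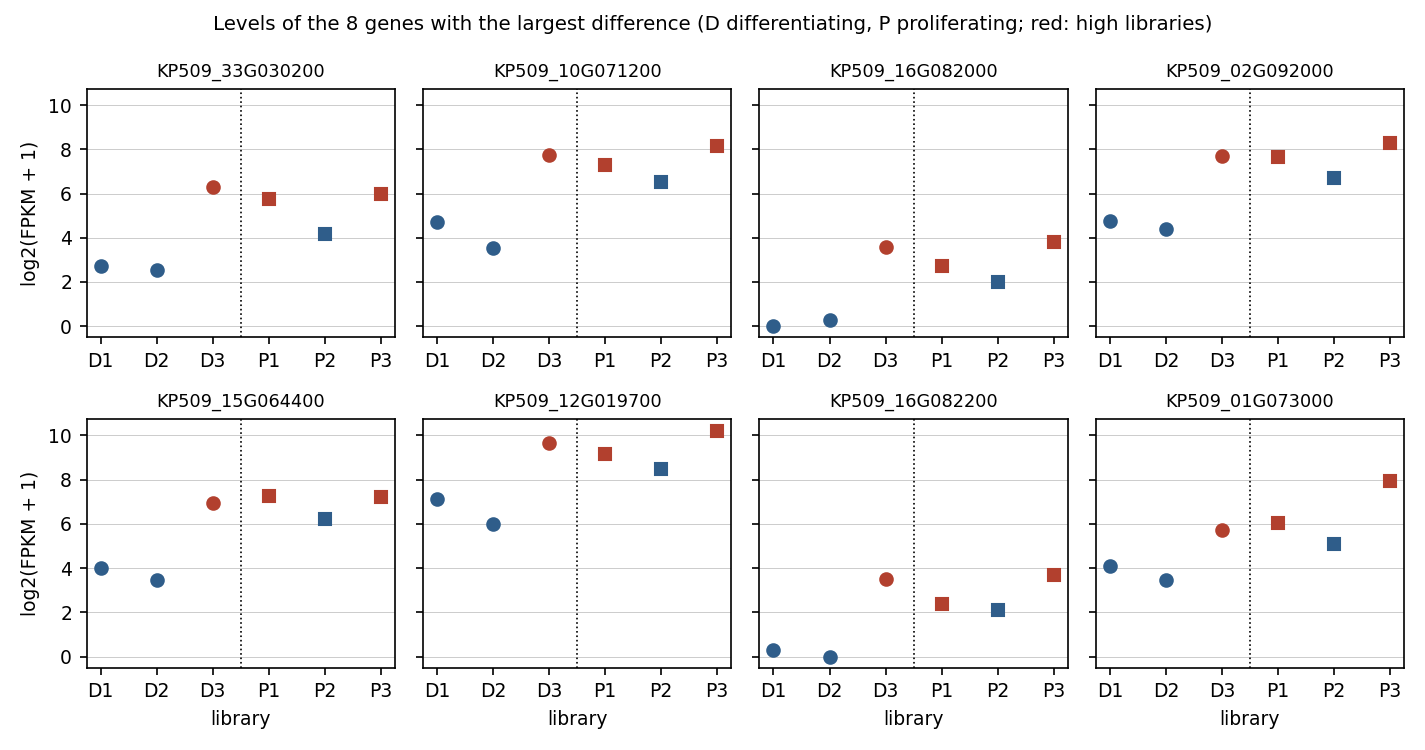
Level of each of the 8 genes with the largest pattern difference in the 6 libraries, as log2(FPKM + 1), with circles for differentiating (D) and squares for proliferating (P) callus and red for the 3 high libraries. In each panel D1 and D2 are lowest and P2 lies between them and the red points.

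Some members were at or near 0 FPKM in differentiating 1 and 2. KP509_16G082000 was listed at 0 in differentiating 1 and had 0.21 and 10.95 FPKM in differentiating 2 and 3, against 5.63, 2.99 and 13.1 FPKM in proliferating 1, 2 and 3. KP509_16G082200 had 0.22, 0 and 10.4 FPKM in differentiating callus and 4.24, 3.26 and 11.9 FPKM in proliferating callus. KP509_06G087200, named after its values were seen, was listed at 0 in differentiating 1 and 2 and had 4.25 FPKM in differentiating 3, against 5.64, 3.19 and 10.1 FPKM in proliferating callus. Such cases were few. Of the members, 94 were above 0 in all 6 libraries and 78 had at least 1 FPKM in all of them. The 7 with a 0 had it in differentiating 1 or 2 only.

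Members were found in each range of mean level looked at, within the 1 to 1000 FPKM that the rule allows. Their mean over the 6 libraries ran from 2.33 to 748 FPKM with a median of 20.5, against a median of 14.2 over the 21124 genes they were drawn from. Among genes averaging 1 to 10 FPKM, 37 of 8306 were members (0.445%), among those at 10 to 100 FPKM 48 of 11212 (0.428%), and among those at 100 to 1000 FPKM 16 of 1606 (0.996%). These shares were not tested against each other. They depend on the scale, since log2(FPKM + 1) understates the differences of low genes, and a pseudocount of 0.1 gave 197 genes.

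The most abundant member was KP509_12G019600, with 213, 120.0 and 1124 FPKM in differentiating 1, 2 and 3 and 854, 549 and 1626 FPKM in proliferating 1, 2 and 3. KP509_09G045800 had 263, 186 and 1055 FPKM in differentiating callus and 1153, 609.7 and 1086 FPKM in proliferating callus. Its 3 high libraries were close to each other, and proliferating 2 stood about midway in FPKM between them and differentiating 2. KP509_1Z154100, on an unplaced sequence, had 196, 123 and 660 FPKM in differentiating callus and 1122, 577 and 814 FPKM in proliferating callus. In KP509_1Z154100 proliferating 2 came closer to differentiating 3 than to either low differentiating library.

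KP509_1Z153800 stood at 177, 155 and 535 FPKM in differentiating callus and 923, 509 and 1073 FPKM in proliferating callus, and KP509_1Z208600 at 114, 94.6 and 421 FPKM against 695, 387 and 622 FPKM. In both, proliferating 2 and differentiating 3 were nearly level. KP509_12G019700, KP509_15G063800 and KP509_15G063700 complete the 8 most abundant members and are described with their neighbours.

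The place of proliferating 2 divided the members. It was measured on the log2(FPKM + 1) scale as 0 at the mean of differentiating 1 and 2 and as 1 at the mean of the 3 high libraries. The median place was 0.622, with quartiles of 0.468 and 0.715, so that in most members proliferating 2 was nearer to the high libraries than to the low pair. It was at least 0.5 in 72 members, from 0.25 up to 0.5 in 14 and under 0.25 in 15. Proliferating 2 lay above both differentiating 1 and 2 in 86.1% of members and in 43.1% of the 21124 genes. The rule does not ask for this order, but it uses these values, so no test is given.

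In 8 members proliferating 2 was below the mean of differentiating 1 and 2, so it was no intermediate library there. KP509_25G008900 had 15.5, 18.1 and 27.8 FPKM in differentiating 1, 2 and 3 and 31.0, 4.59 and 42.7 FPKM in proliferating 1, 2 and 3. KP509_25G009100 had 2.52, 2.2 and 8.45 FPKM in differentiating callus against 4.63, 0.27 and 8.92 FPKM in proliferating callus. In these 2 genes proliferating 2 stood alone at the bottom. KP509_07G003800 and KP509_24G074400, named after their values were seen, were lowest in proliferating 2 as well, at 1.28 and 1.76 FPKM. KP509_07G003800 had 1.32, 3.60 and 16.1 FPKM in differentiating callus and 8.97 and 10.7 FPKM in proliferating 1 and 3.

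**Figure D3:**
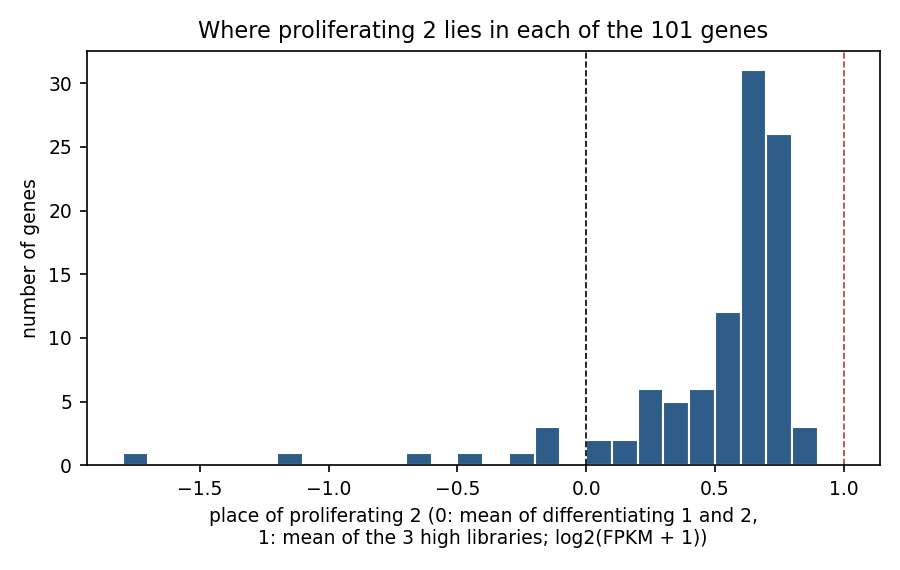
Number of the 101 genes by the place of proliferating 2 between the mean of differentiating 1 and 2 (0, black line) and the mean of the 3 high libraries (1, red line), on the log2(FPKM + 1) scale. The median is 0.622, 72 genes lie at 0.5 or above and 8 lie below 0.

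Of these 8, 3 gave a single profile. KP509_1Z195600, KP509_1Z269700 and KP509_1Z281500, all on unplaced sequences, had 2.64, 1.47 and 7.96 FPKM in differentiating 1, 2 and 3 and 7.19, 1.53 and 8.36 FPKM in proliferating 1, 2 and 3. The values were equal to 2 decimals in all 6 libraries, so the members hold 99 distinct profiles. Near-identical copies of a gene can share reads, and the level of each of these 3 genes is uncertain. The other members had no equal among the tested genes.

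Some members lay beside each other in the genome, a property that the rule did not use. Of the 88 members on assembled chromosomes, 19 (21.6%) had another member as the next tested gene, while members made up 0.437% of the 20150 tested genes on chromosomes. These 19 fell into 9 stretches, 1 of 3 genes and 8 of 2. With 1 tested gene allowed between them the count was 27 (30.7%). The 88 genes were spread over 32 of the 39 chromosomes, and 13 members were on unplaced sequences, where neighbours are not known. Genes next to members that were not members themselves, 151 in all, had a pattern difference of at least 1 in 16.6%, against 2.02% of the tested genes on chromosomes. It was -1 or below in 1.32% against 2.91%. The tested genes on chromosomes include the members, which the 151 do not. No test is given for these shares.

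The stretch of 3 was KP509_33G030100, KP509_33G030200 and KP509_33G030300. KP509_33G030100 had 1.12, 2.59 and 11.9 FPKM in differentiating 1, 2 and 3 and 11.7, 4.24 and 9.15 FPKM in proliferating 1, 2 and 3. KP509_33G030300 had 2.49, 2.42 and 22.1 FPKM in differentiating callus against 26.6, 10.1 and 18.6 FPKM in proliferating callus. Differentiating 3 was the highest library of KP509_33G030100 and KP509_33G030200, and proliferating 1 that of KP509_33G030300. The pattern stopped at this stretch, since the tested genes on both sides, KP509_33G029900 and KP509_33G030500, had pattern differences of 0.09 and 0.24.

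The pair KP509_12G019600 and KP509_12G019700 was the most abundant. KP509_12G019700 had 138, 62.0 and 800 FPKM in differentiating 1, 2 and 3 and 570.1, 357 and 1187 FPKM in proliferating 1, 2 and 3. Its neighbour KP509_12G019600 stayed between 1.37 and 1.93 times that level in every library, so the pair varied in near proportion. The tested genes that follow, named after their values were seen, also had pattern differences above 0. KP509_12G019800 and KP509_12G019900 had 0.85 and 1.11. In KP509_12G019900, however, proliferating 2 (6.88 FPKM) lay above differentiating 3 (4.75 FPKM), so the high libraries did not stand apart. KP509_12G020100 was again a member, with 5.07, 4.38 and 26.0 FPKM in differentiating callus against 32.2, 21.8 and 46.6 FPKM in proliferating callus.

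Past KP509_12G020100 came 2 genes that met every condition except the upper limit on abundance. KP509_12G020300 had 407, 264 and 1959 FPKM in differentiating 1, 2 and 3 and 1785, 1088 and 2836 FPKM in proliferating 1, 2 and 3. KP509_12G020400 had 494, 316 and 2741 FPKM in differentiating callus and 2378, 1578 and 3698 FPKM in proliferating callus. From KP509_12G019600 to KP509_12G020400, 7 tested genes in a row therefore had a pattern difference of 0.85 or more, and KP509_12G020500 after them had 0.42.

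A second such neighbourhood held KP509_15G063700, KP509_15G063800, KP509_15G064100 and KP509_15G064400 in a row. KP509_15G063700 had 165, 94.1 and 515 FPKM in differentiating callus against 640.5, 345 and 680.2 FPKM in proliferating callus. KP509_15G063800 had 145, 110 and 488 FPKM in differentiating callus against 806, 394 and 745 FPKM in proliferating callus, and the ratio between these 2 neighbours kept within 0.795 and 1.14. KP509_15G064100 was left out of the members by its mean of 1119 FPKM alone, and its pattern difference was 1.94. The flanking genes KP509_15G063500 and KP509_15G064500 had pattern differences of 0.23 and -0.32, so the run ended at these genes.

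KP509_10G026900, KP509_10G027100 and KP509_10G027200 were members around KP509_10G027000, which had a pattern difference of 1.38. KP509_10G027200, with the largest pattern difference of them, 2.04, had 57.8, 49.3 and 268 FPKM in differentiating 1, 2 and 3 and 391, 202 and 397 FPKM in proliferating 1, 2 and 3. On the same chromosome KP509_10G071300, next to KP509_10G071200, had 0.23, 1.08 and 8.22 FPKM in differentiating callus and 4.84, 2.85 and 10.8 FPKM in proliferating callus. That pair shared the pattern at very different levels, since KP509_10G071200 was between 9.84 and 108 times as high.

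Of the genes between members, named after their values were seen, not all went the same way. KP509_09G058100, between the members KP509_09G058000 and KP509_09G058200, had a pattern difference of -0.31, with 109, 108 and 99.2 FPKM in differentiating 1, 2 and 3 and 73.5, 97.3 and 82.2 FPKM in proliferating 1, 2 and 3. KP509_25G008900 and KP509_25G009100, both lowest in proliferating 2, had a single tested gene between them, KP509_25G009000, and its 5.52 FPKM in proliferating 2 was likewise its lowest value, against 13.3, 9.10 and 27.9 FPKM in differentiating callus and 20.4 and 27.9 FPKM in proliferating 1 and 3. KP509_16G082000 and KP509_16G082200, at or near 0 FPKM in differentiating 1 and 2, flanked KP509_16G082100, which was listed at 0 in both. Next to KP509_01G073000, KP509_01G073100 and KP509_01G072900 were also highest in proliferating 3, at 25.15 and 260.3 FPKM, as 71 of the 101 members were. KP509_01G072900 was no member, since its 96.0 FPKM in proliferating 2 lay above its 90.7 FPKM in differentiating 3. The neighbours KP509_01G073000 and KP509_01G073100 differed in the place of proliferating 2, at 0.47 and 0.14.

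**Figure D4:**
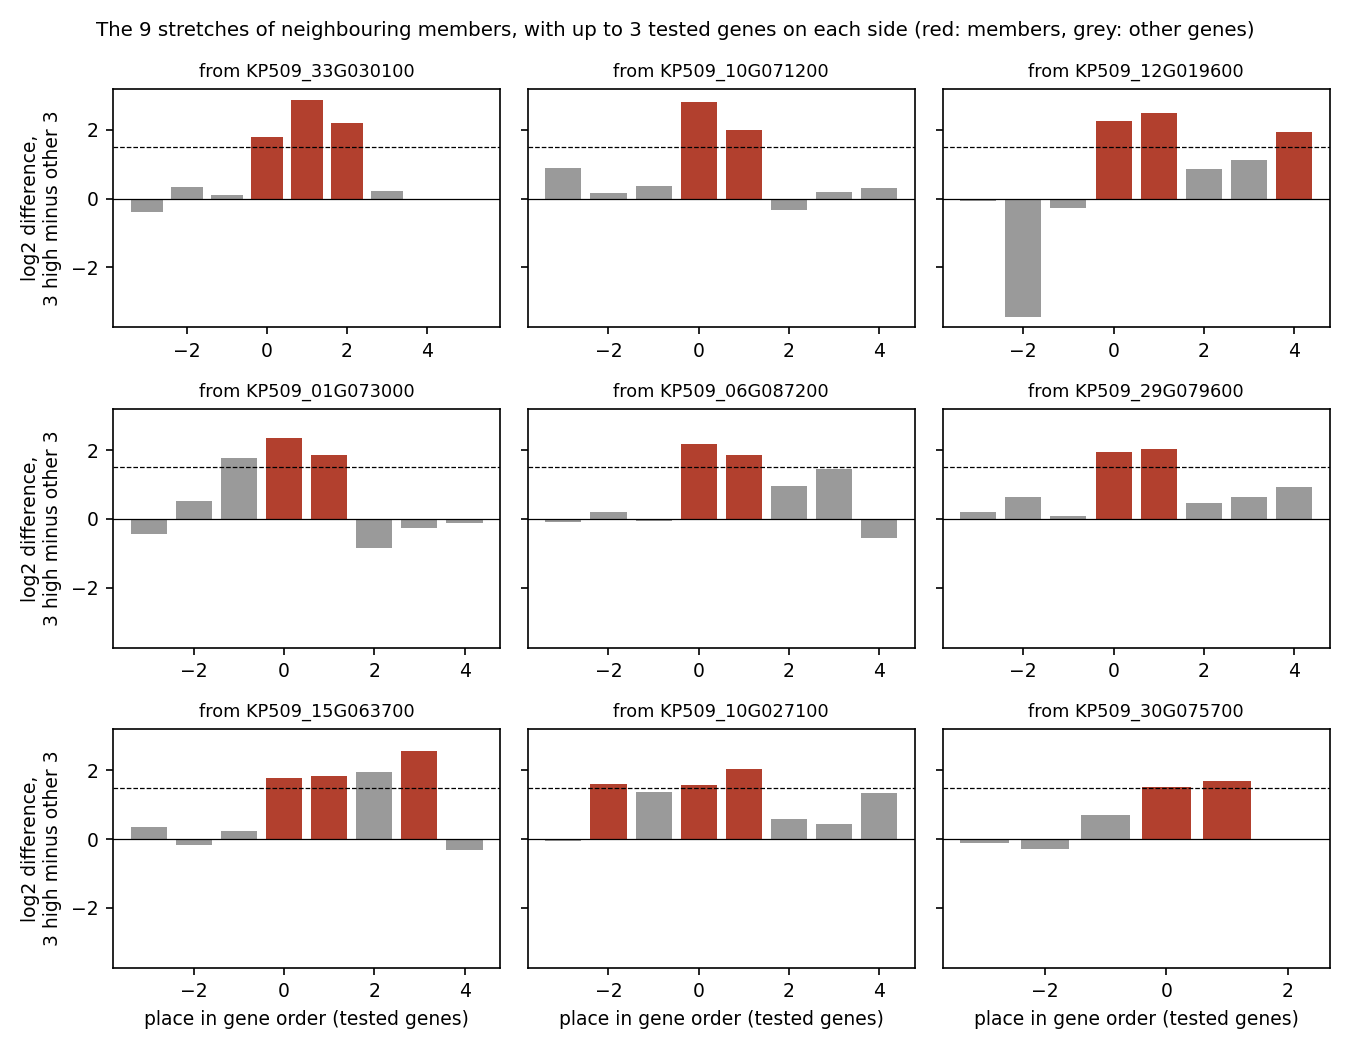
Pattern difference (log2, 3 high libraries minus the other 3) of the members in the 9 stretches and of up to 3 tested genes on each side, by place in the gene order from the first gene of the stretch; the broken line marks 1.5. Members are red, and the next genes are mostly near 0 or above it, with one at -3.43.

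At the threshold the members passed without a gap into other genes. Just inside were KP509_19G004900, KP509_09G058000 and KP509_25G008900, with pattern differences of 1.503, 1.505 and 1.506. Just outside were KP509_15G000400 at 1.495, KP509_03G037200 at 1.493 and KP509_18G007800 at 1.477. KP509_03G037200 had 8.06, 5.31 and 26.1 FPKM in differentiating callus and 26.2, 14.9 and 26.4 FPKM in proliferating callus. Its correlation across the libraries with the members' mean profile had an r of 0.985. KP509_15G000400 and KP509_18G007800 were less alike, with r of 0.779 and 0.772. For the genes just inside, in the order given, r was 0.995, 0.983 and 0.497. Of 117 genes with a pattern difference of at least 1.5, 16 failed because a library of one side overlapped the other. A further 20 models with the authors' own identifiers and 4 KP509 genes at 1000 FPKM or more met the other conditions.

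The genes outside the members whose profile was most like the members' mean profile were BGI_novel_G000273, KP509_39G041800, KP509_36G062300 and KP509_10G083700, with r of 0.999, 0.999, 0.997 and 0.997 over the 6 libraries. BGI_novel_G000273 was kept out only by its identifier, since its pattern difference was 1.502. The others differed in size. KP509_39G041800 followed the order of the libraries with 53.5, 50.6 and 67.2 FPKM in differentiating callus and 68.4, 61.0 and 71.4 FPKM in proliferating callus, a pattern difference of 0.32. In all, 134 tested genes outside the members had an r of at least 0.98 with that profile, with a median pattern difference of 0.99.

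The 101 members were fewer than the genes of the opposite pattern, high in differentiating 1, differentiating 2 and proliferating 2 under the same limits, of which there were 248 (1.17% of the 21124). The members were more abundant, with a median mean of 20.5 FPKM against 6.20 FPKM for the opposite pattern. Their pattern differences reached 2.87, against 7.55 in size for the opposite pattern. The median place of proliferating 2 was 0.622 of the way to the high libraries in the members, where the rule counts it among the low ones. In the opposite pattern the rule counts it among the high ones, and its median place was 0.856 of the way to differentiating 1 and 2. These places run in opposite directions between unlike sets, so they cannot be compared directly. Neighbours of the same kind were found for 21.6% of the 88 placed members, against 18.8% of the 229 placed genes of the opposite pattern. The members made up 0.437% of the tested genes on chromosomes and the opposite pattern 1.14%, so these 2 shares have unlike backgrounds. None of these differences was tested.

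Between the labelled states, the members were lower in differentiating callus by a median log2 difference of -1.36 (differentiating minus proliferating), against -0.0011 over all 22371 tested genes, and none passed the test. No value used here checks the labelled state of a library, and because the high libraries cross the labels, a true difference between states and a library that does not hold its labelled state cannot be told apart. With 1 differentiating and 2 proliferating libraries high, a gene level within each set of 3 libraries would show a labelled difference of minus its pattern difference divided by 3, which had a median of -0.58 in the members. The remaining -0.78 (median, below 0 in 91 of 101) came from the place of single libraries within each set. Differentiating 3 lay below the mean of proliferating 1 and 3 by a median of -0.37, against 0.0057 over the 21124 genes, and the mean of differentiating 1 and 2 lay below proliferating 2 by a median of -1.39, against -0.05. Thus 57 members (56.4%) had differentiating 3 as the lowest of the high libraries, below proliferating 1 and 3, as did 31.7% of the 21124 genes. Proliferating 2 was the highest of the others in 87 members (86.1%), against 43.1% of the 21124 genes, and 52 members had both.

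**Figure D5:**
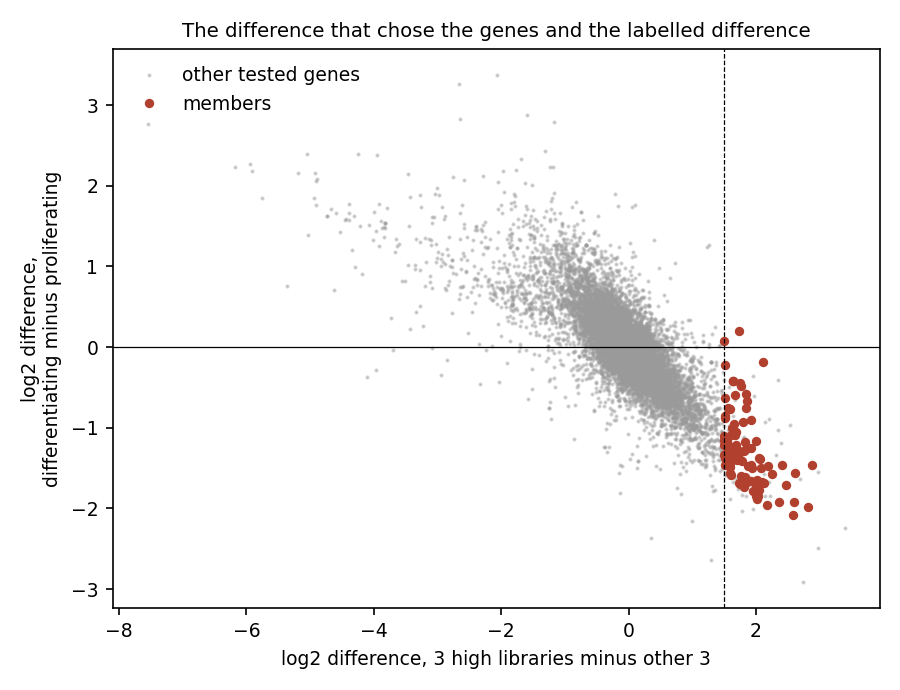
Labelled log2 difference (differentiating minus proliferating) of each tested gene against its pattern difference (3 high libraries minus the other 3), both on the log2(FPKM + 1) scale, with members red and the broken line at 1.5. The 2 axes share all 6 libraries; 99 of the 101 members lie below 0, from -2.09 to 0.20.

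Read against the test, the members' lower level in differentiating callus was not separable from the spread between libraries. A call asked for a 2-fold difference or more and a limma p, adjusted by Benjamini-Hochberg over all tested genes, under 0.05. It was met by 0 of the 101 members and 0 of 22371 genes (0%), and the lowest limma adjusted p of any member was 0.317. At an unadjusted limma p under 0.05 there were 42 members, all lower, where 7.18% of tested genes were lower and 2843 genes passed in either direction. The log2 difference was -1 or below in 79 members and in 1.47% of tested genes, and it was below 0 in 99 members and 50.1% of tested genes. Since the choice of members itself pulls their labelled differences down, nothing is read from them. In no member did the labelled states lie apart, which the rule fixes, although 9.28% of tested genes had all differentiating libraries below all proliferating ones. The median standard error of a member was 0.63, against 0.17 over all tested genes. The rule puts high and low libraries within each state, so it enlarges this standard error by itself and makes a call harder.

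KP509_15G064400 had the lowest labelled difference, -2.09 (SE 0.86, limma adjusted p = 0.389), with 49.1 ± 63.3 FPKM in differentiating and 124 ± 43.9 FPKM in proliferating callus (mean ± SD, n = 3 libraries each). KP509_10G071200 followed with -1.99 (SE 1.02, limma adjusted p = 0.456). At the other end, KP509_25G009100 had 0.20 and KP509_25G008900 had 0.07, with limma adjusted p of 0.933 and 0.974. Only these 2 members were not lower in differentiating callus. Both turned to lower without proliferating 2, at -0.66 and -0.84, and also without differentiating 3, at -0.30 and -0.16.

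Leaving out differentiating 3 gave calls in limma, but that comparison sets 2 low libraries against a group with 2 high ones, which the rule set apart, so nothing is read from it. Without it, limma called 41 of the 101 members, all lower (40.6%), against 0.921% of tested genes called lower, and the members' median was -2.00. Without proliferating 2, limma called 0 members, and the members' median was -1.66. At an unadjusted limma p under 0.05 there were then 55 members, where 3179 of 22371 tested genes passed in either direction. The choice of members pulls these values down as well. When both were left out, an alternative chosen after seeing the data that leaves only high against low libraries, 94 members were called, all lower, against 3.04% of tested genes, and the rule alone makes these groups lie apart.

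Set side by side by replicate number, the states differed by different amounts. Differentiating 1 was below proliferating 1 in all 101 members, by a median log2 difference of -2.04, which the rule requires in sign, where 45.2% of tested genes were lower. Differentiating 2 was below proliferating 2 in 94 members, by a median of -1.55, where 58.0% of tested genes were lower. Differentiating 3 was below proliferating 3 in 85 members, by a median of -0.54, where 49.4% of tested genes were lower. Both libraries of that last pair are high ones. These are single libraries on each side, and the labels do not say that a number marks a shared culture.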

How the data were processed

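Polyadenylated RNA of 6 callus libraries was extracted with CTAB and read from each end over 150 bp (DNBSEQ), per the labels' protocols. The authors deposited FPKM by gene and library to 2 decimals, scaled to transcript length and mapped fragments, per the file headers. Per the submitters' processing notes the tools were RSEM, DESeq2, Bowtie2 2.2.5 and HISAT2 2.1.0, with no role stated. Genome build: not given in the sources used here. No count model suits FPKM, depth is unknown and no counting interval is given.

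The 22371 genes averaging 1 FPKM or more were fitted with limma 3.58.1 in R 4.3.3 on log2(FPKM + 1), which understates the change of low genes. State was the only term, with a mean-variance trend, two-sided tests and Benjamini-Hochberg adjustment over all tested genes. The script was tested on simulated data. Counts and plots used Python 3.11.15, pandas 2.3.3, NumPy 2.4.6 and matplotlib 3.10.9. Of the tested genes, 119 equalled another in all 6 libraries, 3 of them members. The members, lists and rules were chosen with earlier results of these data known. Named by rule were the 8 members with the largest pattern difference, the 8 most abundant, 3 genes on each side of the threshold, members of the 3 longest stretches, the 2 extreme labelled differences each way and the 4 most alike other genes. Further genes beside members were named after their values were seen. Promoters and proteins were not analysed here. Alternatives covered pseudocount, filter, scaling, replicate block, variance model, thresholds and leaving out libraries.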

Additional observations from a re-analysis of the deposited data

How the results depend on the processing

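All 101 members were again chosen with quantile normalization (118 genes in all), median ratio scaling (112) and a pseudocount of 0.1 (197), and 84 remained with a mean of at least 5 FPKM. A limit of 1 in place of 1.5 gave 358 genes and a limit of 2 gave 23. With 1 library left out the rule gave 64 (without differentiating 2) to 240 genes (without proliferating 2), of which 50 and 97 were among the 101.

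No alternative of pseudocount, filter, scaling, variance model or threshold gave a call in limma, for the members or for all genes. Calls over all genes ran from 0 to 337 with 1 library left out, and those among members from 0 to 41, and the members' median log2 difference ran from -2.00 to -0.97. Both highest counts and the lowest median were without differentiating 3. For the members, that fit sets 2 low libraries against a group with 2 high ones, which the rule set apart. For other genes the cause was not tested. Without differentiating 3 and proliferating 2 together, limma called 1329 genes and 94 members, and the median was -2.27. Leaving out both turned KP509_25G008900 to -1.08 and KP509_25G009100 to -1.15. With 1 library left out, KP509_25G008900 ran from -0.84 to 0.64, KP509_25G009100 from -0.66 to 0.83, and the genes just outside the threshold KP509_15G000400 from -0.94 to 0.080 and KP509_18G007800 from -0.87 to 0.15, so their direction rests on single libraries. Of the 29 genes named by rule, limma called 10 without differentiating 3 and 23 without both, against 337 and 1329 of 22371 tested genes. Most of the 29 were members, chosen by these same values, so nothing is read from these counts.

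The replicate numbers were not shown to pair the libraries: the deviations from the group means correlated with r of -0.0955, 0.572 and 0.45 for numbers 1, 2 and 3. Between libraries of unlike number r ran from -0.635 to 0.343, so numbers 2 and 3 lay above that range and number 1 within it. With the replicate block limma called 112 genes, of which 55 (0.246% of tested genes) were lower in differentiating callus and the rest higher. Among them were 7 members, each lower. The 19 members next to another member became 27 with 1 tested gene allowed between. Without genes of identical values the count stayed 19, and it could not fall, since all members with identical values were on unplaced sequences. The planned promoter and protein comparisons were not run, and depth is unknown.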
